A study of Mus musculus with 16 samples.

Results

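The 9 genes described here are proteases, components and regulators of the complement system and one related protease trap: Masp1, C1ra, C1s1, C3, C4b, Cfb, Cd55, Cd59a and A2m. They were given as 9 gene symbols and found by their Entrez IDs among the 19665 genes of the count table. All 9 were found, and 7 had enough reads to be tested, while C4b and Cfb did not. The names were chosen with earlier results of these data in view, so their levels are a description of the libraries, and an adjusted p given below compares a difference with the spread between replicates and is not independent evidence that complement genes stand apart.

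The cells came from mammary tumours of FVB/N mice that carry MMTV-PyMT, a transgene in which a mammary tumour virus promoter drives the polyoma middle T oncogene. Line 631 has 2 wild-type copies of Pygo2, and line 828 is homozygous for the A342E knock-in of Pygo2, a change in the domain with which this Wnt co-activator binds histone tails. Both lines were grown untreated or with TGFb at 2 ng/ml for 4 days, and untreated or with Wnt3a at 100 ng/ml for 3 days, in 8 groups of 2 libraries each. Each genotype is represented by 1 line, so genotype and line cannot be told apart. Nothing in the labels says that the 2 replicates of a group were separate cultures, and the p-values speak only of how these samples scatter, which may be technical. The 16 libraries held 20530538 to 26191846 counts each. The spread between replicates was wider in the 3-day groups (SD of the log2 ratio across genes 0.37 to 0.81) than in the 4-day groups (0.18 to 0.35), and both experiments shared 1 estimate of the spread in the fit.

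Complement is a cascade of serum proteases that marks surfaces for uptake and can end in a membrane pore. The classical route starts when C1q binds a target and its proteases C1r and C1s cleave C4 and C2. The lectin route starts with sugar-binding proteins and the MASP proteases, and the alternative route uses factor B with C3b itself. All of them meet at C3, and host cells hold the cascade off with surface proteins such as CD55 and CD59. The liver makes most of the circulating proteins, but epithelial cells, fibroblasts and macrophages transcribe many of these genes too.

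The labelled tissue was checked against marker genes. The summed level of 8 markers of mammary epithelium lay between 1421 and 3759 CPM (read counts per library size, after TMM scaling) over all libraries, and Epcam was present in each group. Single markers of this list differed. Untreated, Epcam, Krt14, Krt5 and Trp63 were lower in line 828. Krt14 was at 554 ± 377 CPM in line 631 and 61.5 ± 26 CPM in line 828 (SD, n = 4 each). Krt8, Krt18 and Cdh1 did not pass there. Krt5 stayed under 1 CPM in line 828 and entered the test only through line 631. With TGFb, Epcam, Krt5 and Trp63 were lower in line 631, and with Wnt3a, Trp63 was lower in both lines. The group means of Krt19 were at most 0.489 CPM. The summed level of 6 fibroblast markers was 5.99 to 10.6 CPM in untreated libraries of line 631, with Lum and Thy1 at 0, and 204 to 301 CPM in those of line 828, with Lum at 0. With TGFb it was 37.7 to 49.0 CPM in line 631 and 264 to 279.7 CPM in line 828, and with Wnt3a it was 4.95 to 5.05 CPM and 129 to 131 CPM. The 7 macrophage and leukocyte markers in the table summed to 24.4 to 45.7 CPM in untreated line 631 and 30.3 to 101 CPM in untreated line 828, where Ptprc and Adgre1 were at 0. The fibroblast sums are carried by Pdgfra, Col1a1 and Pdgfrb, and single fibroblast markers moved in different directions. Untreated, Pdgfra, Pdgfrb, Col1a1 and Thy1 were higher in line 828, while Dcn, at 0.0253 and 0.0194 CPM, did not pass. With TGFb, Col1a1 and Pdgfrb were higher in both lines, Pdgfra was higher in line 631 and at 84.1 CPM against 156 CPM untreated in line 828 (adjusted p = 0.072), and Dcn was higher in line 828. With Wnt3a, Pdgfra was lower in both lines, and in line 828 Dcn was higher, at 5.92 ± 6.5 CPM (SD, n = 2) against 0.0206 CPM untreated. Of the macrophage and leukocyte markers, Cd14 made up most of the sum and did not pass between the untreated lines. Lyz2 was higher in line 828, with 109 reads against 0 in untreated line 631, and Cd68 and Csf1r were lower. Lyz2 and Thy1 stayed under 1 CPM in line 631 and entered the test only through line 828, with little room to be called lower. Csf1r stayed under 1 CPM in line 828 and entered only through line 631. The part of these lists in the results below was not tested. In such bulk libraries a change in the share of cells of one type and a change in RNA per cell cannot be told apart.

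In untreated cells, 6 of the 7 tested members were higher in line 828 than in line 631 and none was lower, against a background of 27.4% of all 13172 tested genes higher and 26.4% lower in this comparison. The members' median log2 difference was 4.16, against 0.01 over all genes. C3 was the member that did not pass. C1ra, C1s1 and A2m stayed under 1 CPM in every library of line 631 and entered the test only through line 828. The filter left them little room to be called lower, so the count is a description. Each comparison of the lines used the 4 untreated libraries of each, from both experiments.

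With TGFb in line 631, Cd59a was higher and C3 lower, 1 of the 6 tested members other than Masp1 in each direction, where 14.7% of all genes were higher and 12.9% lower. Masp1, known for its rise in that comparison, is left out of the count. A2m stays in the counts for line 631, with TGFb and with Wnt3a, although it had no read in that line and could not pass there. In line 828, Masp1 was higher and A2m lower, 1 of 7 in each direction, with backgrounds of 6.09% and 4.32%. With Wnt3a, C3 and A2m were lower in line 828 (2 of 7, background 4.74%) and none was higher (background 4.59%). In line 631, none of the 7 passed with Wnt3a in either direction by edgeR without a replicate block (backgrounds 2.26% higher and 2.02% lower). A replicate block within each line gave Cd55 higher and C3 lower there, where 2250 of all genes passed. None passed by DESeq2 either, which called 1291 genes in all where edgeR called 564.

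**Figure D1:**
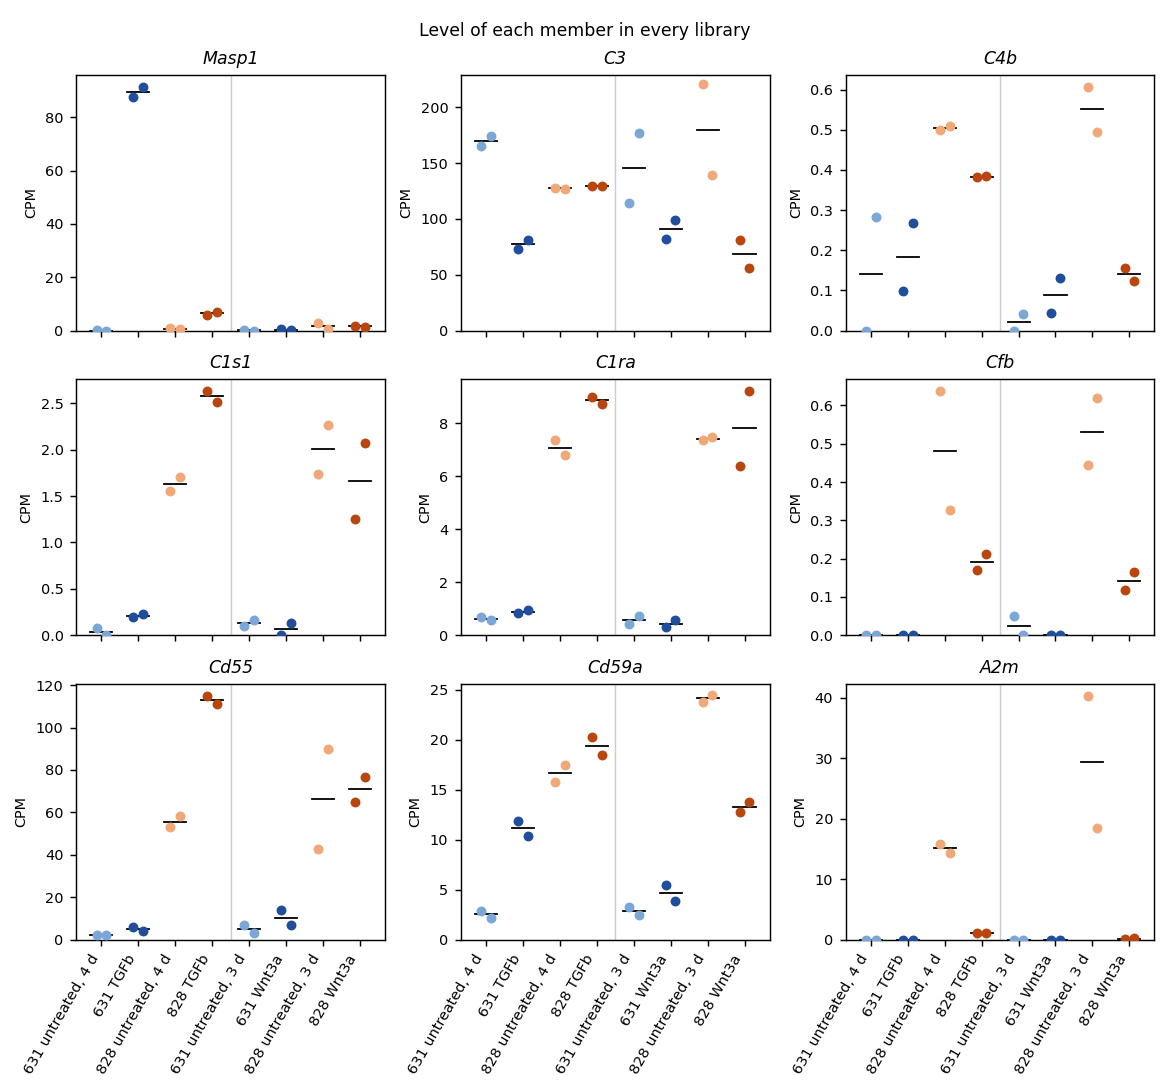
Level of each of the 9 members in every library, in CPM after TMM scaling, with 1 panel per gene and each y axis starting at 0; points are libraries, grouped by line and treatment. Masp1 reaches 87.6 and 91.4 CPM in line 631 with TGFb, A2m is at 0 in all 8 libraries of line 631, and C3 is above 50 CPM in every library.

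Masp1 (chr16:23451785-23521240, minus strand, GRCm38.p6) encodes the lectin-route protease MASP-1 and, by alternative splicing, MASP-3 and the protease-free MAp44, which gene counts do not separate. In line 631 it was at 0.0382 and 0 CPM in the untreated 4-day libraries, a single read between them, and at 87.6 and 91.4 CPM with TGFb. That is a ratio of 4243 with a counting interval of 761 to 167617, and since Masp1 was known for this change it is given as a description, with no test. In line 828 it was at 0.864 and 0.618 CPM untreated and at 6.02 and 6.96 CPM with TGFb. The libraries did not overlap, and the log2 change of 3.13 ± 0.59 (SE) passed (adjusted p = 0.0055, edgeR's quasi-likelihood test, Benjamini-Hochberg over all tested genes). It did not pass without untreated replicate 1 (adjusted p = 0.058) or replicate 2 (0.086) of line 828. Masp1 was thus higher with TGFb in both lines, and the TGFb-treated libraries of line 631 held 13.8 times the level of those of line 828 (95% counting interval 12.3 to 15.6).

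Without treatment the order of the lines was the opposite one. The 4 untreated libraries of line 631 held 3 Masp1 reads in all and those of line 828 held 121, a ratio of 37.5 (counting interval 12.5 to 184) that passed (adjusted p = 8.5e-05). The 3-day untreated libraries of line 828 differed from each other, at 2.79 and 0.66 CPM. With Wnt3a, Masp1 was at 0.491 and 0.261 CPM in line 631, against 0.101 and 0 CPM untreated, and at 1.64 and 1.49 CPM in line 828, between its 2 untreated values. Neither passed (adjusted p = 0.16 and 0.93).

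C1ra and C1s1 encode the classical-route proteases C1r and C1s, which sit together in the C1 complex. Both belong to a gene group on chromosome 6 and each has a close copy there, C1rb and C1s2, with which reads could be shared, so values of either copy are uncertain. C1ra was at 0.404 to 0.740 CPM in the 4 untreated libraries of line 631 and at 6.80 to 7.47 CPM in those of line 828. The mean rose from 0.599 ± 0.15 to 7.25 ± 0.30 CPM (SD, n = 4 each), a log2 difference of 3.57 ± 0.26 (adjusted p = 3.0e-07). C1s1 was at 0 to 0.164 CPM in line 631 and at 1.55 to 2.27 CPM in line 828. With 8 and 179 reads the ratio was 20.8 (counting interval 10.3 to 48.9, adjusted p = 1.2e-05). For both proteases the 2 lines did not overlap in any library, treated ones included.

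Neither treatment moved these proteases past the threshold in either line. With TGFb, C1ra was at 8.99 and 8.75 CPM in line 828, against 7.37 and 6.80 untreated, and C1s1 at 2.63 and 2.52 CPM against 1.55 and 1.71 CPM (adjusted p = 0.66 and 0.52). In line 631, C1s1 had 2 reads untreated and 9 with TGFb (log2 change 2.20 ± 0.99, adjusted p = 0.12, and 0.049 in a fit of the 4-day libraries alone). With Wnt3a, C1ra was at 6.41 and 9.23 CPM in line 828 and C1s1 at 1.25 and 2.07 CPM, and both overlapped with untreated libraries. The 250 bases before the RefSeq start site of both genes are given because these neighbours differed between the lines together; capitals mark matches to the searched motifs. They lie at chr6:124512371-124512620 (plus strand) and chr6:124542360-124542609 (minus strand) of GRCm38.p6.
C1ra: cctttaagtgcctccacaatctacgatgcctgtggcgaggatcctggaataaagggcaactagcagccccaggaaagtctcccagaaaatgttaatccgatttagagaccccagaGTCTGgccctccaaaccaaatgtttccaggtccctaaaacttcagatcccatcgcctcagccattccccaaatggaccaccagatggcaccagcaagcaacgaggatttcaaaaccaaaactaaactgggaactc
C1s1: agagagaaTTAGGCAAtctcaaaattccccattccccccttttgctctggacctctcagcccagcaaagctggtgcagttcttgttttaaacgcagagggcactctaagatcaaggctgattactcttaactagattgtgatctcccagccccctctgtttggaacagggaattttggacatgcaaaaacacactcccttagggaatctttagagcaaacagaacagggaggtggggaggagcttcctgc

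Motifs were searched by their letters on both strands of the 250 bases before the first listed start site of each gene. This was done for the 5 members found in the RefSeq promoter table, Cd55, Cd59a, C1ra, C1s1 and C3. The C1ra window holds 1 match to the Smad motif CAGAC, on the reverse strand, starting 135 bases before the start. That motif is short, and 42.2% of all 32851 promoter windows hold it. The C1s1 window holds 1 match to the C/EBP motif TTGCNNAA, also on the reverse strand, 242 bases before the start, as do 9.56% of all windows. None of the 5 windows had a match to the motifs searched for AP-1 (TGANTCA, in 6.75% of all windows), STAT (TTCNNNGAA, 7.02%) or TCF/LEF (CTTTGAT, 3.21%). These are letter matches, not measured binding.

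C3 (chr17:57203967-57228136, minus strand) encodes the component on which all 3 routes converge. It was the member that stayed high everywhere, from 56.3 to 221 CPM, and the one that did not differ between the untreated lines beyond their spread, at 157 ± 30 and 154 ± 45 CPM (SD, n = 4 each; adjusted p = 0.83). Within the experiments it was lower in line 828 in the 4-day libraries alone (log2 difference -0.38 ± 0.09, adjusted p = 0.0049) and did not pass in the 3-day libraries alone (0.31 ± 0.37, adjusted p = 0.56). With TGFb, line 631 fell from 165 and 174 CPM to 73.4 and 81.1 CPM. The libraries did not overlap, and the log2 change was -1.13 ± 0.27 (adjusted p = 0.0077; 0.067 without TGFb replicate 1). In line 828 the same treatment left C3 at 129 and 129 CPM, against 128 and 127 CPM untreated (adjusted p = 0.99). The difference between those responses, 1.14 ± 0.38 on the log2 scale, did not pass with the spread of all 16 libraries (adjusted p = 0.089) and did with that of the 4-day libraries alone (2.1e-04) and under DESeq2 (0.034).

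With Wnt3a, C3 fell in line 828 from 221 and 139 CPM to 80.7 and 56.3 CPM, a log2 change of -1.39 ± 0.27 (adjusted p = 0.0060). The groups did not overlap. The call was lost without Wnt3a replicate 2 (adjusted p = 0.083) and with the 3-day libraries alone (0.11). In line 631 the values were 114 and 177 CPM untreated and 82.1 and 99.3 CPM with Wnt3a, which did not pass (-0.68 ± 0.27, adjusted p = 0.17). That change passed in 1 of 14 alternatives, the replicate block within each line. The difference between the lines did not pass either (adjusted p = 0.35). The 250 bases before the C3 start at chr17:57228137-57228386 (minus strand, GRCm38.p6) hold 1 match to the C/EBP motif, in capitals, 45 bases before the start.
C3: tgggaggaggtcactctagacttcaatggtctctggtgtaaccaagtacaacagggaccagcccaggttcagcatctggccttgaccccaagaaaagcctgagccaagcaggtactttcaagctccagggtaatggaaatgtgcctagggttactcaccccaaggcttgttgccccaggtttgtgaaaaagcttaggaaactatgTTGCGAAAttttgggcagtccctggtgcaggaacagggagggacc

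C4b, the component cleaved by C1s, and Cfb, the protease factor B of the alternative route, were near the lower limit of these libraries and were not tested. C4b was at most 0.607 CPM and Cfb at most 0.637 CPM in any library. Summed over the 4 untreated libraries of a line, C4b had 7 reads in line 631 and 52 in line 828, a ratio of 6.91 (counting interval 3.12 to 18.0). Cfb had 1 and 49 reads, a ratio of 45.6 (7.80 to 1835), and 7 of the 8 libraries of line 631 had none. When all genes were tested without the filter on low counts, both were higher in line 828 (adjusted p = 0.0026 for C4b and 2.3e-04 for Cfb). With Wnt3a in line 828, C4b went from 27 to 7 reads and Cfb from 26 to 7, and neither passed in that fit (adjusted p = 0.27 and 0.24). C4b also has a near copy in mouse, C4a, a transcribed pseudogene in the annotation used, at 0.499 ± 0.21 CPM in untreated line 631 and 1.75 ± 0.61 CPM in untreated line 828 (SD, n = 4), so reads of the 2 copies could be split.

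Cd55 (chr1:130429798-130465009, minus strand) encodes decay-accelerating factor, a surface protein that takes C3 convertases apart. It was at 2.22 to 7.17 CPM in untreated line 631 and at 42.7 to 90.1 CPM in untreated line 828, with no overlap. The means were 3.69 ± 2.4 and 61.0 ± 20 CPM (SD, n = 4), a log2 difference of 4.16 ± 0.35 (adjusted p = 9.1e-07). With TGFb the values were higher in every library of both lines, from 2.29 and 2.22 to 5.80 and 4.31 CPM in line 631 and from 52.9 and 58.5 to 115 and 111 CPM in line 828. The log2 changes of 1.16 ± 0.47 and 1.02 ± 0.43 did not pass (adjusted p = 0.088 and 0.18), and they passed with the spread of the 4-day libraries alone (7.4e-04 and 5.4e-04). With Wnt3a, Cd55 was at 14.2 and 6.75 CPM in line 631, against 7.17 and 3.08 CPM untreated, and at 65.0 and 76.9 CPM in line 828, against 42.7 and 90.1 CPM. Both overlapped and did not pass (adjusted p = 0.21 and 0.94). The change in line 631 passed in 1 of 14 alternatives, the replicate block within each line.

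The copy Cd55b was at 0.119 ± 0.063 CPM in untreated line 631 and 4.44 ± 0.46 CPM in untreated line 828 (SD, n = 4; 11 and 436 reads), and reads of Cd55 and Cd55b could be shared. The Cd55 window at chr1:130462745-130462994 (minus strand, GRCm38.p6) is shown for its pair of Smad motif matches, in capitals. They start 141 and 134 bases before the first listed start site. That site lies inside the gene span given above, so the window is not the sequence before the outer end of the gene at 130465009.
Cd55: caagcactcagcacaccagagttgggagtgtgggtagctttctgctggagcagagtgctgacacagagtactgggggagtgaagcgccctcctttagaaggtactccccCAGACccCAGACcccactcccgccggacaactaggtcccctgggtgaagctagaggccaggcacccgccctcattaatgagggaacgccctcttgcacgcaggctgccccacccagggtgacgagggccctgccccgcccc

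Cd59a (chr2:104095753-104115410, plus strand) encodes the membrane-anchored inhibitor that stops the terminal pore from forming. It separated the untreated lines, at 2.17 to 3.28 CPM in line 631 and 15.8 to 24.5 CPM in line 828 (log2 difference 2.89 ± 0.19, adjusted p = 1.4e-07). With TGFb it rose in line 631 from 2.90 and 2.17 CPM to 11.9 and 10.4 CPM, a log2 change of 2.13 ± 0.27 (adjusted p = 9.4e-05) that passed in all 14 alternatives tried. In line 828 it was at 15.8 and 17.5 CPM untreated and 20.3 and 18.5 CPM with TGFb (adjusted p = 0.73). The lines differed in this response by -1.91 ± 0.36 on the log2 scale, line 828 minus line 631 (adjusted p = 0.0058). It was 1 of the 6 tested members other than Masp1 that was lower in this difference, in which 3.79% of all genes were lower and 5.04% higher. The member counts for this difference and for that with Wnt3a include A2m, for which neither could be tested.

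With Wnt3a the values of Cd59a were 5.44 and 3.83 CPM in line 631, against 3.28 and 2.51 CPM untreated, and 12.8 and 13.8 CPM in line 828, against 23.8 and 24.5 CPM. Neither group overlapped with its untreated libraries. The log2 changes were 0.68 ± 0.26 (adjusted p = 0.17) and -0.86 ± 0.25 (adjusted p = 0.052), of opposite sign, and neither passed. Their difference of -1.54 ± 0.36 was just inside the threshold (adjusted p = 0.049; 1 of 7 members lower and none higher, backgrounds 1.16% and 1.18%) and did not pass in 10 of 19 alternatives. Among these were leaving out untreated replicate 1 of line 631 or any 1 of the 4 libraries of line 828 (adjusted p = 0.051 to 0.16). The copy Cd59b had 1 read in the 4 untreated libraries of line 631 and 11 in those of line 828.

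A2m (chr6:121636165-121679238, plus strand) encodes alpha-2-macroglobulin, a plasma protein of the same thioester family as C3 and C4 that traps proteases. No read was counted in any of the 8 libraries of line 631. Line 828 held 2184 reads in its 4 untreated libraries, at least 677-fold more than 3 reads over the untreated libraries of line 631 would give (adjusted p = 9.5e-07). Within line 828, A2m fell from 15.9 and 14.4 CPM to 1.19 and 1.11 CPM with TGFb, 13.1 times lower (counting interval 9.92 to 17.6; log2 change -3.71 ± 0.46, adjusted p = 0.0022). With Wnt3a it fell from 40.3 and 18.4 CPM to 0.117 and 0.207 CPM, 8 reads against 1440 (183 times lower, counting interval 92.6 to 425; log2 change -7.46 ± 0.58, adjusted p = 1.6e-04). Neither treatment group overlapped with its untreated libraries, although the untreated 3-day pair lay apart. Both changes passed in every alternative tried, 14 and 15. With line 631 at 0, a difference between the lines in these responses could not be tested. Pzp, a relative of A2m, was at 0 in all libraries. Fibroblast markers in line 828 moved both ways beside these changes. With TGFb, Col1a1 went from 42.2 to 145 CPM and Pdgfra from 156 to 84.1 CPM, and with Wnt3a, Pdgfra went from 129.8 to 43.7 CPM and Dcn from 0.0206 to 5.92 CPM. Their part in the A2m result was not tested.

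**Figure D2:**
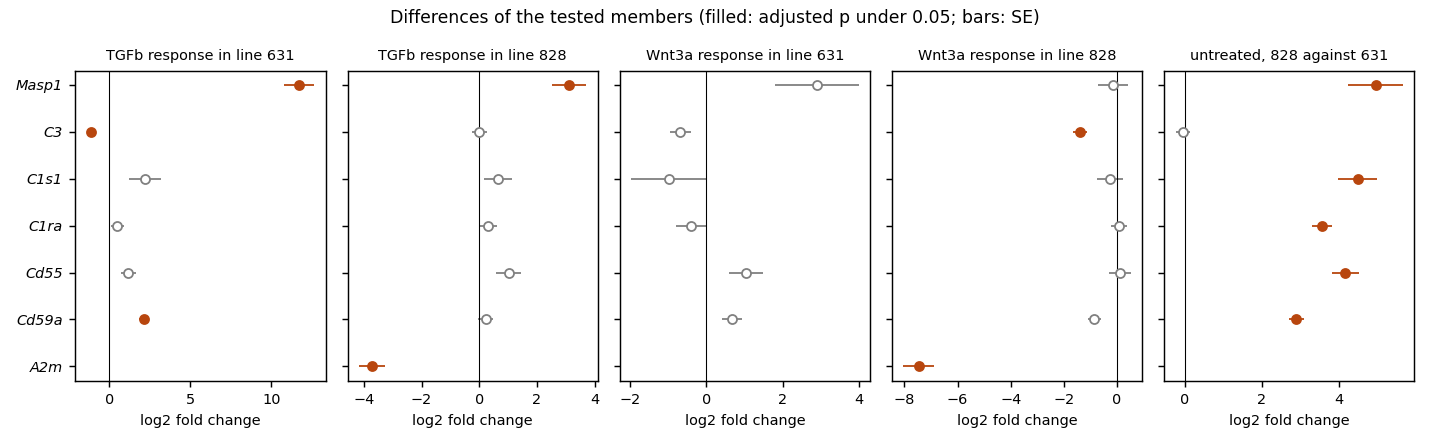
Log2 fold changes of the 7 tested members, with bars of 1 SE from edgeR's pooled spread, for TGFb and Wnt3a in each line and for the untreated lines; A2m is not drawn where line 631 is at 0. C3 lies below 0 with TGFb in line 631 (-1.13) and with Wnt3a in line 828 (-1.39), and every member drawn in the untreated panel except C3 lies above 2.

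Levels of different genes were compared per kilobase of exon. In untreated 4-day cells of line 631, C3 stood at 33.0 CPM per kb, followed by Cd59a at 1.40, Cd55 at 0.890 and C1ra at 0.210 CPM per kb. In the same cells of line 828, C3 was at 24.9 CPM per kb and Cd55 next to it at 22.0, then came Cd59a at 9.21, A2m at 3.28, C1ra at 2.38 and C1s1 at 0.545 CPM per kb. With TGFb, Cd55 in line 828 stood at 44.6 CPM per kb and C3 at 25.1, while in line 631 C3 at 15.0 and Masp1 at 10.5 CPM per kb led the members. Masp1, at 0.00224 CPM per kb in untreated 4-day cells of line 631, was next to C3 there with TGFb.

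The wider pathway was taken as 63 genes in lists of initiating proteins, components, regulators, receptors and thioester relatives, of which 52 were in the table and 25 were tested, members included. In untreated cells, 15 of the 25 were higher in line 828 and 5 lower (median log2 difference 2.89, against 0.01 over all genes, of which 27.4% were higher and 26.4% lower). Of the 19 genes listed for initiating proteins, 13 were in the table and 8 were tested. The C1q chains (C1qa, C1qb and C1qc), Mbl1, Mbl2 and Fcnb were not in the table. Masp2, Fcna, Colec10, Colec11 and Cfd had too few reads to be tested. Of the 8 tested, 7 were higher and none lower. Beside C1ra, C1s1 and Masp1 these were C1rl, a C1r-like protease, the copies C1rb and C1s2, and the surface collectin Colec12. C1rl had 4 reads in untreated line 631 and 676 in untreated line 828, a ratio of 157 (counting interval 61.1 to 578). C1s2 and the component C2, which C1s cleaves, had 0 reads in untreated line 631 and 173 and 65 in line 828, at least 53.6-fold and 20.1-fold more. C2 and C4a were the 2 of 3 tested components that were higher. C1ra, C1s1, C1rb, C1rl, C1s2, C2, A2m and the receptor C5ar2 stayed under 1 CPM in every library of line 631. They entered the test only through line 828. The filter left them little room to be called lower, so these counts are a description.

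Of the 8 tested regulators, Cd55, Cd55b, Cd59a and Clu were higher in untreated line 828 and Cr1l was lower. Cd55b entered the test only through line 828, and the filter left it little room to be called lower. Cr1l, the rodent convertase regulator Crry, was at 67.9 ± 17 CPM in line 631 and 46.8 ± 7.6 CPM in line 828 (SD, n = 4), a log2 difference of -0.53 ± 0.16 (adjusted p = 0.016) in libraries that overlapped. The call was lost without untreated replicate 1 of either line in either experiment (adjusted p = 0.050 to 0.066). Among 4 tested receptors, 3 were lower in line 828, namely Itgb2, Cd93 and C1qbp, and 1 was higher. C1qbp did not pass without 4-day untreated replicate 1 of line 631 or untreated replicate 1 of line 828 in either experiment (adjusted p = 0.055 to 0.075). That one, C5ar2, a receptor for C5a, had no read in untreated line 631 and stood at 9.30 ± 4.0 CPM in untreated line 828. Of the thioester relatives, A2m was higher and Cd109 lower, at 237 ± 78 CPM in line 631 and 8.20 ± 4.0 CPM in line 828 (log2 difference -4.92 ± 0.25, adjusted p = 1.6e-08).

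With TGFb in line 631, 6 of the 25 pathway genes were higher, Masp1 among them, and 3 lower (median 0.50, all genes 0.06), where 14.7% and 12.9% of all genes were. The 3 lower are near the background share. A2m and C2, counted among the 25, had no read in these libraries of line 631 and could not pass. Clu, which encodes clusterin, a secreted chaperone that binds the terminal complex, rose from 40.0 and 46.0 CPM to 3716 and 4461 CPM (log2 change 6.57 ± 0.72, adjusted p = 3.2e-05). Cfi, the protease factor I that cuts C3b and C4b, went from 0 reads to 97, at least 35.9-fold higher (adjusted p = 0.0010). Cfi reached 1 CPM in this treated group alone and entered the test only through it. The filter left it little room to be called lower, so the count of higher genes, with Cfi and Masp1 in it, is a description. Colec12 and C5ar2 also rose, the latter to 16 reads, and Cd93 and C1qbp fell. C5ar2 did not pass without untreated replicate 1 or 2 or TGFb replicate 2 (adjusted p = 0.052 to 0.072), nor C1qbp without untreated replicate 1 or either TGFb replicate (0.058 to 0.16). In line 828, 5 were higher and 1 lower (median 0.74, all genes 0.00), with backgrounds of 6.09% and 4.32%. Clu rose there from 222 and 201 CPM to 1251 and 1339 CPM (2.61 ± 0.60, adjusted p = 0.016), and Itgb2, Cd93 and Cd109 rose too. Leaving out any 1 of the 4 libraries of that comparison ended the calls of Clu (adjusted p = 0.065 to 0.14), Itgb2 (0.055 to 0.10) and Cd93 (0.11 to 0.24), but not that of Cd109. Cfi had 1 read in that line with TGFb. The lines differed in the TGFb response of Clu by -3.96 ± 0.82 (adjusted p = 0.010), which did not pass without untreated replicate 1 of line 631 (0.056) or TGFb replicate 1 of line 828 (0.053).

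With Wnt3a, 1 of the 25 pathway genes was higher and 1 lower in line 631 (median 0.08, all genes 0.01), near the background shares of 2.26% and 2.02%. These were Cd55b, which went from 3 to 32 reads at the edge of the threshold (adjusted p = 0.050, under 0.05 before rounding; 0.078 to 0.34 without either untreated replicate or Wnt3a replicate 1), and Cd109, which fell by 1.86 ± 0.30 on the log2 scale (adjusted p = 0.0050). The 32 reads of Cd55b were uneven between the 2 libraries, at 0.712 ± 0.76 CPM (SD, n = 2). A2m, Cfi and C5ar2, counted among the 25, had no read in these libraries of line 631 and could not pass. In line 828, 2 of the pathway genes were higher and 3 lower (median -0.04, all genes -0.03), with backgrounds of 4.59% and 4.74%. C5ar2 fell from 4.65 and 14.4 CPM to 0.391 and 0.662 CPM (log2 change -4.17 ± 0.59, adjusted p = 0.0021), beside C3 and A2m. Itgb2, the beta chain of complement receptors 3 and 4, rose from 0.512 ± 0.15 to 3.79 ± 1.5 CPM (SD, n = 2; adjusted p = 0.0012), and Cd109 rose from 11.4 ± 2.7 to 23.5 ± 2.6 CPM (adjusted p = 0.049; 0.058 to 0.25 without any 1 of the 4 libraries).

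**Figure D3:**
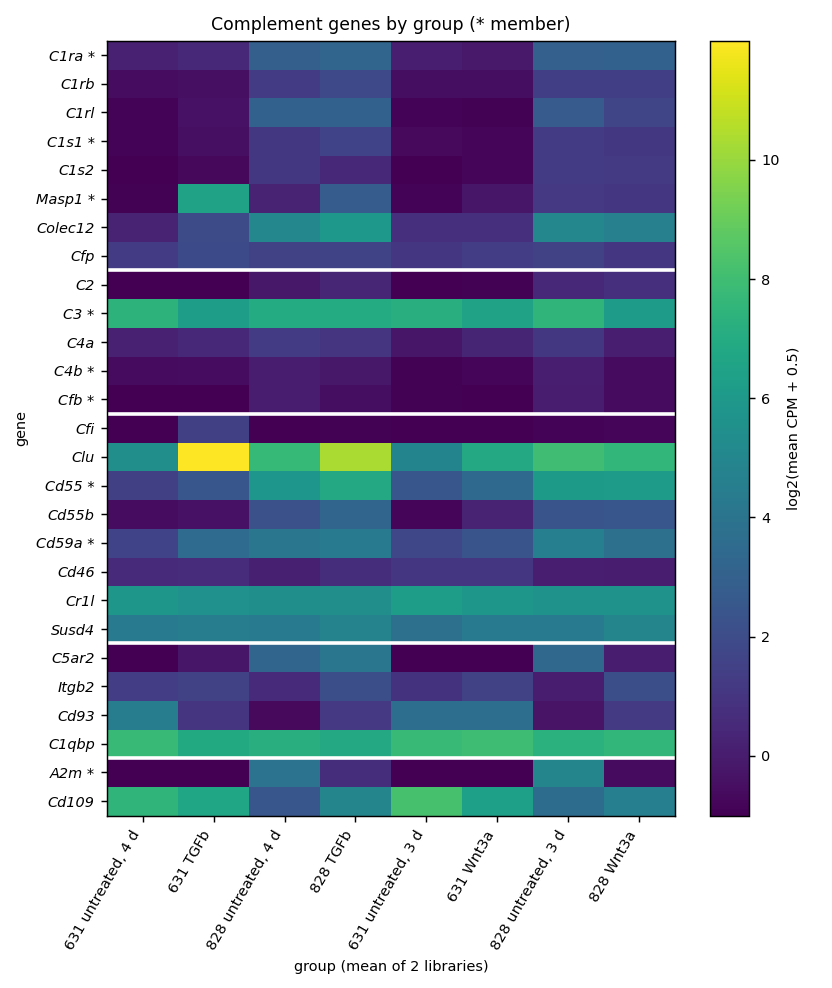
Heat map of the group means, as log2(CPM + 0.5), of the 25 tested pathway genes and the 2 members that were not tested, with 1 column per group of 2 libraries and members marked by an asterisk. C3 is high in all 8 columns, Clu is highest in line 631 with TGFb, and A2m and C5ar2 are dark in the columns of line 631 and of line 828 with Wnt3a.

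For a protease, a component and a regulator, the genes with the most similar pattern over the 8 group means were listed among 10582 genes, as Pearson's r of log2(CPM + 0.5). The 8 points are means of 2 libraries each and are mostly separated by line and treatment, so r is a description. Nearest to Masp1 were Zbtb24 (r = 0.995), Lats2 (0.976) and Golgb1 (0.972). Lats2, a kinase of the Hippo pathway, had means of 60.3 CPM untreated and 202 CPM with TGFb in line 631. Nearest to C3 were Faah (0.963), Ptx3 (0.917) and Notch1 (0.902). Ptx3, a secreted pentraxin that binds C1q, went from 109.9 to 36.4 CPM with TGFb in line 631. Nearest to Cd55 were Actr3b (0.992), Map3k12 (0.992) and Ociad2 (0.984).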

How the data were processed

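RNA was sequenced as single 75-base reads from TruSeq Stranded mRNA libraries, per the labels' protocols. STAR and the mm10 build are named in the submitters' processing notes, with versions, gene models, the counter and its use of strand not given in the sources used here. What the authors deposited is 1 table of whole-number counts of reads per Entrez gene, with 19665 rows and 16 columns, although its name speaks of CPM. Symbols came from the RefSeq table of GRCm38.p6 (19613 IDs matched), exon lengths from GENCODE M21, and promoter windows from RefSeq on GRCm38.p6, which held 5 of the 9 members.

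Genes with at least 1 CPM in at least 2 libraries (13172) were tested with edgeR 4.0.16 in R 4.3.3 by the quasi-likelihood test after TMM scaling, in 1 model over all 16 libraries (8 residual degrees of freedom; the common coefficient of biological variation was 0.26). Adjusted p-values are Benjamini-Hochberg over all tested genes, a gene passed under 0.05, and the SE is the log2 fold change divided by the square root of F. Ratios of few reads have 95% exact counting intervals, a group at 0 was set to 3 reads for a bound, and both cover counting error only. The differences between lines in a response are line 828 minus line 631. Comparisons share untreated libraries. DESeq2 1.42.0 and limma 3.58.1 served as alternatives. The steps were tested on simulated counts.

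The members, the pathway and marker lists and the tests were chosen with earlier results of these data known. Named were all members, their close copies, pathway genes that passed in a comparison, marker genes, and the 3 genes most like Masp1, C3 and Cd55 with a mean of at least 5 CPM. No pair of replicates agreed within sampling noise, so each library counted once.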

Additional observations from a re-analysis of the deposited data

Results flagged for a closer look

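Members and pathway genes whose response to a ligand differed between the lines in edgeR's test of the difference itself (line 828 minus line 631, log2 scale) are given here. For TGFb, Cd59a differed by -1.91, with 2.90 and 2.17 CPM against 11.9 and 10.4 CPM in line 631, and passed in all 18 alternatives. Masp1 differed by -8.60, a fitted value that rests on 1 read in the untreated 4-day libraries of line 631 and contains the change for which Masp1 was known, so it is a description. Clu differed by -3.96, and rose in both lines. Cd93, a surface lectin once described as a C1q receptor, differed by 7.76: it fell from 22.5 ± 1.3 to 1.43 ± 0.0076 CPM in line 631 and rose from 0.127 ± 0.077 to 1.77 ± 0.022 CPM in line 828 (SD, n = 2). Cd109, a thioester relative of A2m that also binds TGFb, differed by 3.35, at 178 ± 12 and 102 ± 15 CPM in line 631 and 5.02 ± 0.35 and 29.4 ± 0.29 CPM in line 828, untreated and with TGFb.

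For Wnt3a, Cd59a differed by -1.54 and Cd109 by 2.91. The Cd109 difference did not pass with the 3-day libraries alone (adjusted p = 0.14). Cd109 went from 296 ± 66 to 81.6 ± 39 CPM in line 631 and from 11.4 ± 2.7 to 23.5 ± 2.6 CPM in line 828. The opposite directions of Cd59a did not pass within either line.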

How the results depend on the processing

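Over 59 gene results and 978 alternatives none reversed its sign, and 31 of 49 results that passed did so in every alternative tried. The other 18 lost their call in at least 1. The counts of members that moved, Masp1 included, were these. For the difference in the Wnt3a response, 1 member was lower; this became 0 with median-ratio scaling, without the count filter, with the 3-day libraries alone, with the replicate block and without both 3-day line 828 replicates 2, became 2 with DESeq2 and with limma on log2(CPM + 0.5), and was 0 to 1 when single replicates were left out. For the difference in the TGFb response, no member was higher, and 1 (C3) was with DESeq2, with the 4-day libraries alone and with either the replicate block within each line or the crossed block. With the 4-day libraries alone, 4 members instead of 2 were higher with TGFb in line 631, 2 instead of 1 in line 828, and 1 instead of 0 was lower in untreated line 828. With the 3-day libraries alone, 1 instead of 2 was lower with Wnt3a in line 828, and leaving out single replicates gave 1 to 2. Leaving out single replicates gave 0 to 1 for members lower with TGFb in line 631 and 0 to 1 for members higher with TGFb in line 828. When each experiment was fitted alone, genes passing in all fell from 564 to 20 for Wnt3a in line 631 and from 1229 to 357 in line 828, and rose from 3634 to 7213 for TGFb in line 631 and from 1371 to 4517 in line 828; the cause was not tested.

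Replicates 1 and 2 carry the same numbers in all groups. Their differences correlated at 0.75 and 0.27 between untreated and TGFb-treated cells of lines 631 and 828 and at 0.76 and 0.42 for Wnt3a. Between the 4-day and 3-day untreated groups of a line they correlated at 0.73 and 0.32. Between the untreated lines the values were -0.40 and -0.58, which bears on numbers shared by both lines and not on pairing within a line. Pairing within a line was thus not settled, and with 2 pairs the main fit did not use it. A replicate block within each line gave 2 members higher with TGFb in line 828, Cd55 (adjusted p = 0.027) beside Masp1, and 1 higher and 1 lower with Wnt3a in line 631, Cd55 (0.040) and C3 (0.046), where the fit without it gave 1, 0 and 0. Genes passing in all rose with that block too, from 1371 to 2181 and from 564 to 2250. Cd55 with TGFb in line 631 (0.019) and Cd59a with Wnt3a in line 828 (0.013) also passed with it. The block crossed between the lines, added after seeing the data, as was leaving out both 3-day replicates 2 of line 828, gave 2 members higher with TGFb in line 828. Low counts limit C4b, Cfb, C1s1 and Masp1 in line 631.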

Other observations

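The C1r and C1s genes lie together on chromosome 6. C1rl, C1ra, C1s1, C1rb and C1s2 span 143.0 kb (chr6:124493113-124636085, GRCm38.p6), and all 5 were higher in untreated line 828. This stretch was chosen after the values of its genes were seen. None of the 5 reached 1 CPM in any library of line 631, so they passed the count filter only through line 828. Of 13 other tested genes within 250000 bases on either side, 6 were higher in line 828 and none was lower by edgeR's quasi-likelihood test. Among all tested genes, 27.4% were higher and 26.4% lower. Among those 6 were Eno2 (log2 difference 2.50 ± 0.33) and P3h3 (3.53 ± 0.45). Eno2 had group means of 0.394 to 0.957 CPM in line 631 and also passed the count filter only through line 828. The filter left it little room to be called lower. P3h3, a collagen prolyl hydroxylase, also rose with TGFb in line 631 (2.75 ± 0.61, adjusted p = 0.0052).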
